A study of Sus scrofa with 16 samples.

Results

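Accessible chromatin regions (ACRs) of newborn porcine liver were sorted by how many other newborn tissues shared them. Each liver peak on chromosomes 1 to 18 was given a class from 0 to 5, the number of peak lists among newborn heart, kidney, lung, skeletal muscle and spleen that it overlapped by at least 1 bp. The newborn liver list held 115504 such peaks out of 120012 in all, and the 8 lists of the series held 798988 peaks together. The series holds 16 ATAC-seq libraries, an assay in which a transposase cuts open DNA, from female crossbred domestic pigs without any treatment or engineered allele. The 8 groups, with 2 replicates each, were the 6 newborn tissues (day 0 in the labels, animals aged 1 day in the methods of the study) and liver of suckling piglets (day 28) and of adults (day 180). By those methods, 2 full-sib hybrid animals were used at each age, and the 6 newborn tissues came from the same 2 pigs. Nuclei came from whole frozen tissue, so a peak may belong to any cell type in it, and fewer cells of a type cannot be told apart from less open chromatin per cell. Each group was deposited as 1 list that merges its replicates, without read counts. The depth behind a peak cannot be read from such a list, and the library totals that the study gives were not used here. No value below carries a replicate error, and no test between groups was made. Wilson 95% confidence intervals (CIs) cover counting error only, and the range over the 18 autosomes is given as a spread. A region missing from a list was not called there, which is not a measurement of closed chromatin.

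Liver parenchyma is made of hepatocytes, which secrete most plasma proteins, build lipoproteins and bile acids, detoxify ammonia and release glucose. Their identity genes are driven by a small set of factors (HNF4, HNF1, FOXA and CEBP proteins) that bind both promoters and distant enhancers. The perinatal liver also houses blood formation, which moves to the bone marrow around birth, so erythroid and other blood cells lie among the hepatocytes. Promoters of genes that every cell uses are mostly rich in GC and CpG and open in all tissues, whereas enhancers tend to open in few cell types.

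Sequences around 6 summits show what the 2 ends of this scale looked like. Each holds the summit with 100 bp on either side, read 5′ to 3′ on the plus strand of Sscrofa11.1, and capitals mark matches to the 12 motif strings described further on. The first 3 are the strongest class 0 peaks near hepatocyte genes that held an HNF4, HNF1 or CEBP match. They lie in an intergenic peak 17.3 kb from a start site of TF, the iron carrier transferrin (chr13:74913242-74913442), in the promoter of PLG, plasminogen (chr1:7062160-7062360), and in an intron of APOB, the structural protein of very low density lipoprotein (chr3:117265257-117265457). The next is the strongest class 0 peak of ALB, albumin, 20.0 kb from its start site (chr8:69623319-69623519), which held no match at all. NFE2, an erythroid transcription factor, has a class 1 promoter peak shared with spleen alone (chr5:19497742-19497942), and the window holds a GATA and an SP1 match. LEPROT, a membrane trafficking protein, has the strongest class 5 promoter peak (chr6:146987337-146987537), with a pair of SP1 matches.
TF: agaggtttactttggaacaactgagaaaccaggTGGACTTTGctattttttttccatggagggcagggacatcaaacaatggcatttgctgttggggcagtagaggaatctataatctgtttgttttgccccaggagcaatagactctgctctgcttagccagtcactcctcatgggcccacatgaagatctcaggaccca
PLG: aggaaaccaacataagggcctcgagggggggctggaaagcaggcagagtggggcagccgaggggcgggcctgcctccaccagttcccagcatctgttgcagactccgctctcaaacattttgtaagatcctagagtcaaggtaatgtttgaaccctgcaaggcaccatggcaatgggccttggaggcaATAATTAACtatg
APOB: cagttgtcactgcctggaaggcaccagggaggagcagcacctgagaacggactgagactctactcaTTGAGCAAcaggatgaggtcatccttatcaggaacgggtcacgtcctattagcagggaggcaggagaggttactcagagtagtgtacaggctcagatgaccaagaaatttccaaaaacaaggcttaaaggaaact
ALB: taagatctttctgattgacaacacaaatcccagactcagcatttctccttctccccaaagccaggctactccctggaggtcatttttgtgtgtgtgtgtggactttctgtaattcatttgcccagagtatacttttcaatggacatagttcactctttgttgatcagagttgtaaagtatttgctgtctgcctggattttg
NFE2: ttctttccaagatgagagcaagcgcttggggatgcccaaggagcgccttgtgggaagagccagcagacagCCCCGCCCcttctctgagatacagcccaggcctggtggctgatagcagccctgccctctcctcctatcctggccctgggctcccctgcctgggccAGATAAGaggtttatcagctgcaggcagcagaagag
LEPROT: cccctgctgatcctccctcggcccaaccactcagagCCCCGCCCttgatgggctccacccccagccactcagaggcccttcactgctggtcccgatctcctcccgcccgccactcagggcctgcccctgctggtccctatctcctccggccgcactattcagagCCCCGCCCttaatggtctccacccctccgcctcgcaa
The GC content of these windows was 46.8% at TF, 54.7% at PLG, 49.8% at APOB and 41.3% at ALB, against 61.2% at NFE2 and 68.2% at LEPROT.

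The largest class of newborn liver peaks was shared with no other newborn tissue. Class 0 held 32321 peaks (28.0%, 95% CI 27.7 to 28.2), from 24.6% on chromosome 12 to 31.5% on chromosome 8. Sharing then fell off to 25868 peaks in class 1 (22.4%), 15678 in class 2 (13.6%), 11207 in class 3 (9.70%) and 10375 in class 4 (8.98%), and rose again to 20055 in class 5 (17.4%). The distribution thus had high ends and a low middle. Peaks widened with sharing, from a median of 337 bp in class 0 through 443 bp in class 3 to 919 bp in class 5. Classed in the same way against the other 5 lists, class 0 took 17.5% of heart, 21.8% of lung, 22.1% of muscle, 24.3% of spleen and 34.6% of kidney peaks, so liver lay second to kidney. These lists differ in length, from 54830 peaks in muscle to 128184 in kidney. With every newborn list cut to the strongest 54830 peaks, class 0 held 27.5% of liver peaks (15078) and class 5 held 18.4% (10083). The order turned over when newborn liver alone was limited to an IDR (a measure of reproducibility explained below) of 0.05, where class 5 was the largest with 45.9% (10249 peaks) and class 0 held 17.8% (3963). With that limit on every list, class 0 was again the largest, with 34.0%.

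Sharing went together with position at genes. Promoters, from 2.2 kb upstream to 500 bp downstream of the start sites of protein-coding genes (PCGs), held 4.16% of class 0 (95% CI 3.95 to 4.38), 5.82% of class 1, 8.21% of class 2, 11.3% of class 3, 17.3% of class 4 and 53.1% of class 5 (95% CI 52.4 to 53.8). The share rose at every step on 17 of 18 autosomes and was higher in class 5 than in class 0 on 18 of 18. Introns held 48.6% of class 0 but 17.7% of class 5, and intergenic DNA held 37.9% and 21.7%. Exons held 9.01% of class 0. Classed from the side of the other tissues, class 5 had a promoter share between 53.2% and 53.4%, but these are largely the same regions by construction. There, class 0 had promoter shares from 2.80% in heart to 4.56% in spleen. The share rose with every class in each of these tissues too, so the rise was not particular to liver.

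**Figure D1:**
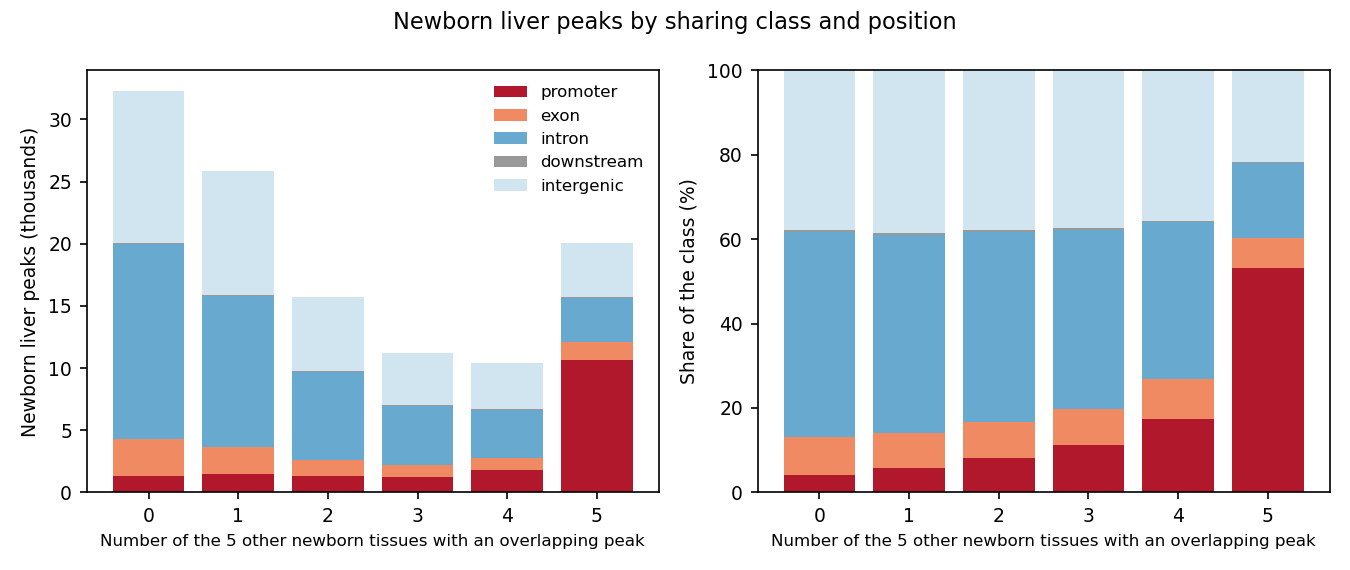
Newborn liver peaks by the number of other newborn tissues with an overlapping peak (horizontal axis), in units of 1000 peaks (left) and as percent of the class (right), coloured by position. The bars fall from 32321 peaks in class 0 to 10375 in class 4 and rise to 20055 in class 5, where the promoter part reaches 53.1%.

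The distance from the summit to the nearest start site of a PCG fell in the same order. Its median was 29.9 kb in class 0, 27.2 kb in class 1, 25.7 kb in class 2, 23.2 kb in class 3, 18.7 kb in class 4 and 0.812 kb in class 5. Between the classes 0 and 4 the change was gradual, and the fall at every step held on 7 of 18 autosomes, while class 5 lay closer than class 0 on 18 of 18. Within 500 bp of a start site lay 1.50% of class 0 and 46.4% of class 5. Beyond 100 kb lay 20.7% and 6.16%. Class 0 summits were most often found between 10 and 50 kb away, with 40.4% of the class.

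**Figure D2:**
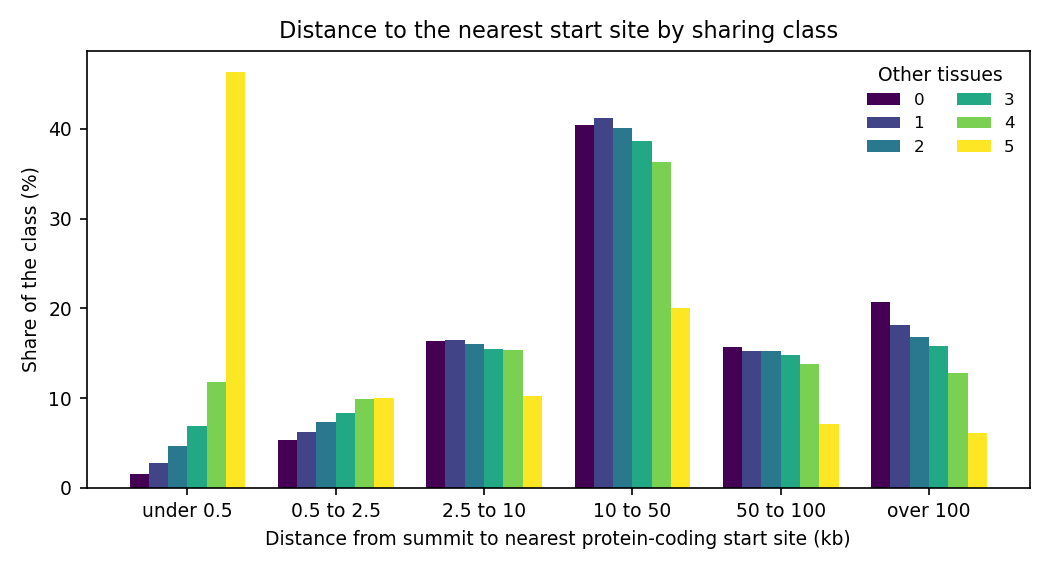
Percent of each class (vertical axis) by distance in kb from the summit to the nearest protein-coding start site (horizontal axis), with 1 bar for each number of other tissues. Class 5 stands out in the nearest bin, with 46.4% against 1.50% in class 0, and class 0 leads beyond 100 kb, with 20.7%.

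Peaks of class 5 were also the stronger ones. An irreproducible discovery rate (IDR, the chance that a matched peak is not reproducible) of 0.05 or lower was reached by 12.3% of class 0, 12.4% of class 1, 11.6% of class 2, 12.5% of class 3, 16.3% of class 4 and 51.1% of class 5. The median −log10 p of class 0 was 21.1 in replicate 1 and 6.65 in replicate 2, and that of class 5 was 105 and 26.4, so replicate 2 gave the weaker calls of liver in both. With all liver peaks ordered by the smaller of the 2 values and cut into 5 bins of 23100 or 23101, class 0 made up 39.0% of the weakest bin and 12.3% of the strongest. Promoter shares kept their order without the weak peaks. Among the 3963 class 0 peaks with an IDR of 0.05 or lower, 4.69% lay in promoters at a median distance of 33.4 kb, and among the 10249 of class 5 it was 68.0% at 0.149 kb.

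Class 0 peaks were called again in older liver less often than shared ones. Of class 0, 57.1% overlapped a peak of suckling liver and 54.2% (95% CI 53.7 to 54.7, from 49.7% to 56.6% over autosomes) a peak of adult liver, whereas 31.9% overlapped neither. In class 5 the values were 97.6%, 94.6% and 1.36%. The adult share rose from 55.5% in class 1 through 61.6% in class 2, 67.5% in class 3 and 78.2% in class 4, and this order of all 6 classes held on 15 of 18 autosomes. Class 1 kept close to class 0 in adult liver but stood apart in suckling liver, with 70.8%. The suckling list is the longer, with 135635 peaks on these chromosomes against 104770 in the adult list. Shares are not corrected for this, so a difference between ages cannot be told apart from list length. Strength moved with these shares. Adult overlap of class 0 was 32.3% in the weakest of these bins and 89.0% in the strongest. That of class 5 was 83.8% and 99.4%. The bins did not match width. Median widths in the weakest bin were 230 bp in class 0 and 968 bp in class 5, and in the strongest 550 bp and 989 bp. A wider peak can overlap another list more easily, which bears on both the class and the adult share. The part of width in the adult shares of these bins was not tested. Of the peaks that reached an IDR of 0.05, 88.6% of class 0 and 99.7% of class 5 were called in adult liver.

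**Figure D3:**
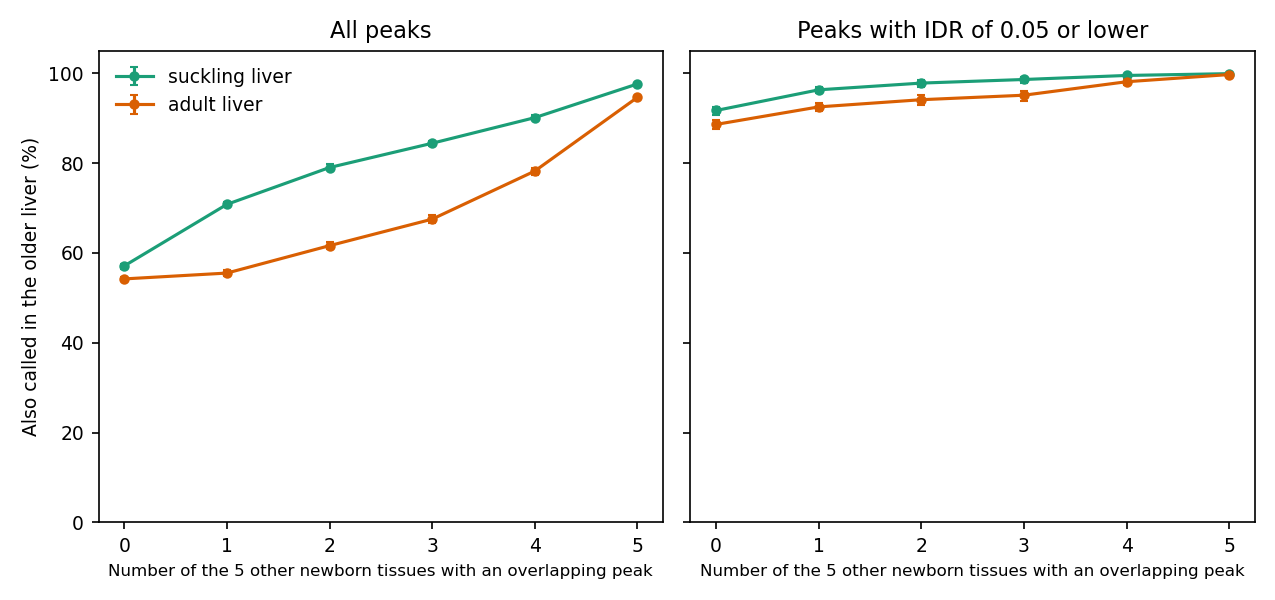
Percent of newborn liver peaks also called in suckling and adult liver (vertical axis) by number of other newborn tissues (horizontal axis), for all peaks (left) and for those with an IDR of 0.05 or lower (right); bars are Wilson 95% confidence intervals. Adult overlap climbs from 54.2% to 94.6% on the left and starts at 88.6% on the right.

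The label of liver was checked against 4 hepatocyte markers. APOH, a phospholipid-binding plasma protein, was nearest to 6 peaks, of which 5 were class 0. Its promoter peak (chr12:12838940-12839508) was called in no other newborn tissue, with a −log10 p of 103 in replicate 1 and 6.78 in replicate 2, and was called again at both later ages. APOA2, a protein of high density lipoprotein, had a pair of class 0 peaks. They lay at chr4:89236636-89237138 (−log10 p of 142 and 31.4, IDR 0.0127) and at chr4:89237323-89237639 (39.8 and 8.07, IDR 0.151). Its promoter window also holds a class 5 peak over the start site of its neighbour TOMM40L (chr4:89235142-89235725), an outer mitochondrial membrane protein. So the same window was open in all tissues at one end and in liver alone at the other.

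ALB and AFP, the adult and the fetal main plasma protein, were marked by distal rather than promoter peaks. ALB was nearest to 15 peaks, of which 14 were class 0 and 1 was shared with kidney. They lay up to 51.7 kb from its start site, 7 of the class 0 peaks in the gene and 7 outside, and 4 had an IDR of 0.05 or lower. The strongest, at chr8:69622976-69623642, reached a −log10 p of 327 and 43.9. No newborn list held a peak in the ALB promoter, although both later liver lists did, and 13 of its 14 class 0 peaks were called in adult liver. AFP was nearest to 8 peaks, and no list of any age held a peak in its promoter. Class 0 peaks made up 3 of the 8, all between ALB and AFP or in the end of ALB, with the strongest at chr8:69663220-69664946 (139 and 32.2). Another 4 were shared with kidney alone, such as chr8:69674051-69674446 (103 and 9.22), 3.44 kb from the AFP start site. The AFP gene also held class 0 peaks nearer to the start site of its neighbour AFM, at chr8:69692776-69693543 (IDR 0.272) and chr8:69694027-69694297 (IDR 0.607). Just past its end lay another, at chr8:69699525-69701413 (IDR 0.355). None of these was called in older liver. Newborn liver thus had promoter peaks at 2 of 4 markers and class 0 peaks near all 4.

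Of 18725 PCGs on these chromosomes, 13927 (74.4%) had a newborn liver peak in a promoter, 1230 (6.57%) a class 0 peak there and 10866 (58.0%) a class 5 peak. A class 0 promoter peak seldom meant a promoter open in liver alone. Of the 1230 genes, 862 (70.1%) had a further liver promoter peak of class 1 to 5, and 972 (79.0%) a promoter peak in another newborn tissue. Only 189 had a class 0 promoter peak with an IDR of 0.05 or lower. Counted by gene, where each tissue's own peaks are laid over the promoter, 268 PCGs (1.43% of all) had a promoter peak in liver and in none of the 5 other tissues, whereas 10917 of the 13927 (78.4%) had one in all 5. Of the 268, 200 (74.6%) had a promoter peak in suckling liver and 185 (69.0%) in adult liver, compared with 10770 (98.7%) in adult liver for those open in all tissues.

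Genes of hepatocyte function more often carried class 0 promoter peaks than PCGs at large. Among 113 genes of 8 hepatocyte lists (markers, plasma carriers, apolipoproteins, coagulation, complement, amino acid breakdown, gluconeogenesis, bile acid and drug metabolism), 58 (51.3%) had one against 6.57% of all PCGs. A promoter peak in liver and no other newborn tissue was found for 27 (23.9%) against 1.43%, and a class 5 promoter peak for 23 (20.4%) against 58.0%. Of the 113 genes, 107 had a newborn liver promoter peak and all 107 had one in adult liver, compared with 92.7% of all PCGs with a newborn liver promoter peak. The other 6 were ALB, AFP, CPS1, PC, C5 and CFI, and of these ALB and C5 had a promoter peak in adult liver. Class 0 made up 566 of the 1009 peaks nearest to these genes (56.1%) against 28.0% of all liver peaks. The 24 lists used here were written with results of these data known, so their counts are descriptions.

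Apolipoproteins led, with class 0 promoter peaks in 9 of 10 genes. APOA5, a regulator of plasma triglyceride, had a pair of them, the stronger at chr9:44180794-44181368 (−log10 p of 99.4 and 18.9). APOC2, which activates lipoprotein lipase, also had promoter peaks in liver alone. So had APOF in the count by gene, although 1 of its 2 liver promoter peaks was class 1, with the overlap outside the promoter window. The exception was APOA1, the main protein of high density lipoprotein, whose promoter peak was class 4 and lacked only muscle. APOB was nearest to 17 peaks, of which 13 were class 0.

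Plasma carriers and protease inhibitors followed, with 14 of 23, and 8 of the 23 had a promoter open in liver alone. These were TTR (carrier of thyroid hormone and retinol-binding protein), HPX (heme), AHSG, SERPIND1, ITIH1, ORM1, FETUB and A1BG. The TTR promoter peak (chr6:115495971-115496776) had a −log10 p of 208 and 14.1. FETUB was nearest to 10 peaks, all class 0, and 7 of them were called in adult liver. GC, the vitamin D carrier, and SERPINC1, antithrombin, instead shared their promoter peak with kidney alone . TF stands for 2 neighbouring gene models in the annotation, of which the first was counted in the list and had a class 5 promoter peak, and the second a class 3 one. Class 0 made up 3 of 7 and 13 of 15 of their nearest peaks, so that at TF the peaks called in liver alone were distal, such as the one printed above.

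Complement genes had class 0 promoter peaks in 8 of 15 and coagulation factors in 6 of 15. C6, C8A and MBL2, the mannose-binding starter of the lectin pathway, had promoters open in liver alone, and the promoter peaks of C3 and C2 were class 1. The fibrinogen genes lie side by side on chromosome 8. FGA had a promoter peak in liver alone (chr8:74574363-74575492, 226 and 25.8) and was nearest to 5 peaks, all class 0. FGB was nearest to 8, of which 7 were class 0, and FGG to 13, of which 7 were. PLG had a pair of class 0 promoter peaks, the stronger at chr1:7061707-7062479 (199 and 21.2).

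Urea cycle and amino acid genes had class 0 promoter peaks in 8 of 16. TAT, which starts tyrosine breakdown, and TDO2, which starts tryptophan breakdown, had promoters open in liver alone. TDO2 was nearest to 7 peaks, all class 0. ARG1, the last enzyme of the urea cycle, was nearest to 25 peaks, of which 13 were class 0. CPS1, the first enzyme of the cycle, was nearest to more class 0 peaks than any other PCG, with 53 of 55. No list of any tissue or age had a peak in a CPS1 promoter as annotated. Its class 0 peaks included 38 in the gene, which spans 129 kb, and were mostly weak. The median of the smaller −log10 p was 5.18 and only 4 had an IDR of 0.05 or lower. Adult liver shared 25 of the 53, suckling liver 18, and 23 were found at neither age.

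Bile acid and drug genes had class 0 promoter peaks in 8 of 19. SLC10A1, the sodium-dependent bile acid importer, was nearest to 7 peaks, all class 0, with its promoter at chr7:93421517-93422101 (117 and 26.6). NR1I3, a xenobiotic receptor, SULT2A1, SLCO1B3 and CYP2E1 also had promoters open in liver alone, CYP2E1 at chr14:141690262-141690804 (88.2 and 18.3). AKR1D1, a bile acid reductase, was nearest to 24 peaks, of which 22 were class 0. By contrast CYP7A1, which starts bile acid synthesis, had 1 promoter peak and it was class 4. Gluconeogenesis and glycogen genes had 3 of 11, with GYS2, the liver glycogen synthase, open in liver alone and 6 of 11 with class 5 promoter peaks. In fatty acid oxidation, 4 of 16 had class 0 and 12 of 16 class 5 promoter peaks. CPT1A, which admits fatty acids to mitochondria, had a promoter open in liver alone (chr2:4249732-4250366, 182 and 36.9). Cholesterol synthesis was at the shared end, with class 5 promoter peaks in 14 of 15 genes. DHCR7, the last enzyme of the pathway, had class 0 peaks beside its class 5 peak.

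The regulators of hepatocytes shared most of their promoter peaks. Class 0 promoter peaks were found in 4 of 18 (CEBPB, NR5A2 and RXRA among them), class 5 in 8 of 18, and none had a promoter open in liver alone. HNF4A had a pair of promoter peaks shared with kidney alone (chr17:46783307-46784719 and chr17:46820637-46821634), and 8 of its 13 nearest peaks were class 1. CEBPA, FOXA3, ONECUT1 and TBX3 had class 5 promoter peaks. Their surroundings could still be largely of class 0, with 18 of 25 nearest peaks of ONECUT1, 19 of 33 of TBX3 and 24 of 36 of NR5A2.

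**Figure D4:**
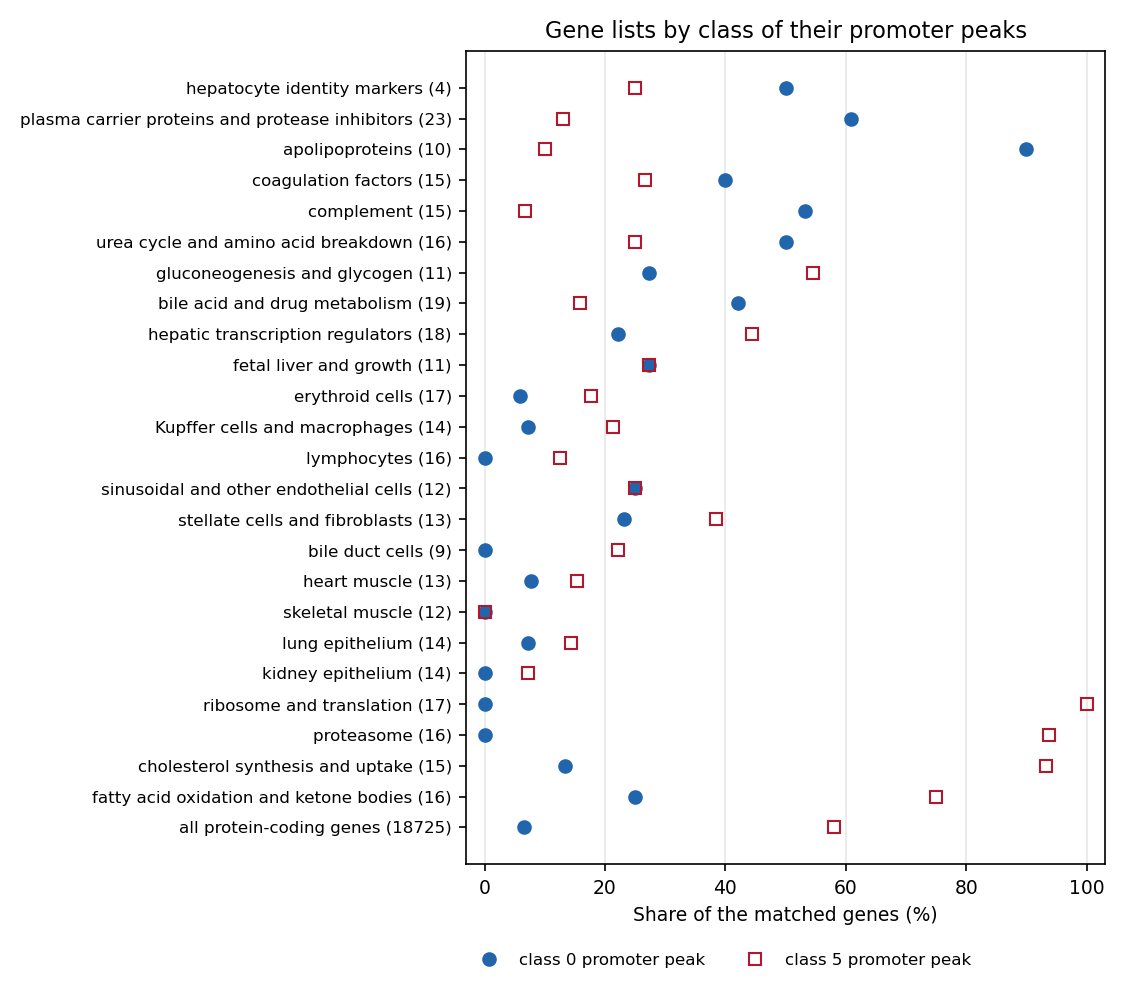
Percent of the matched genes of each list (horizontal axis; number matched in brackets) with a class 0 promoter peak (filled circles) and with a class 5 promoter peak (open squares). Apolipoproteins lie at 9 of 10 for class 0, ribosome and proteasome genes at 0 for class 0, and all PCGs at 6.57% and 58.0%.

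Lists for other cells and for general functions ranged from no class 0 promoter peak to 27.3% of the list, against 6.57% of all PCGs. Ribosome and translation genes had no class 0 promoter peak in 17 and class 5 in all 17, and proteasome genes had 0 and 15 of 16. Erythroid genes had class 0 promoter peaks in 1 of 17 (GFI1B, with an IDR of 0.607), Kupffer cells and macrophages in 1 of 14, lymphocytes in 0 of 16, bile duct cells in 0 of 9, kidney epithelium in 0 of 14, skeletal muscle in 0 of 12, heart muscle in 1 of 13 and lung epithelium in 1 of 14. Higher shares were found for stellate cells and fibroblasts, with 3 of 13 (23.1%), and endothelial cells, with 3 of 12 (25%). The endothelial ones were GATA4 with OIT3 and CLEC4G, which are known in liver sinusoids. In the count by gene the last 2 had promoters open in liver alone, although OIT3 also had a class 1 promoter peak. The fetal growth list had 3 of 11 (27.3%), which were IGF2, LIN28B and AHSG, the last also among the plasma carriers. A newborn liver promoter peak of any class was found for 13 of 17 erythroid, 11 of 14 Kupffer cell, 8 of 16 lymphocyte and 11 of 12 endothelial genes, against 74.4% of all PCGs. Each of these lists had members of both kinds. Newborn liver promoter peaks were found for the erythroid genes HBB and AHSP, the macrophage genes CSF1R and SPI1 and the endothelial genes PECAM1 and KDR. They were also found for the lymphocyte genes CD4, CD8A, CD79A, LCK and IKZF1. None was found for the erythroid genes KLF1, RHAG, HEMGN and TFRC, or for CD163, MARCO and TIMD4 of Kupffer cells. The endothelial gene STAB2, CD3E of T cells and MS4A1 of B cells also had none. The part of these cells in the class counts was not tested.

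The strongest class 0 peaks lay partly at listed genes (SERPINA6, APOC4 and TBX3) and mostly at others. In promoters they lay at DGKG, a diacylglycerol kinase (chr13:124135763-124136539, −log10 p of 408 and 113), CLDN14, a tight junction protein (chr13:200145065-200146389, 381 and 79.1), and SERPINA6, the cortisol carrier (chr7:115552731-115553246, 191 and 74.1). The next were LOC106506844, LOC100624333, RPP40, YPEL1, B3GALT5, PNLIPRP1 and APOC4, and all 10 were called again at both later ages. SERPINA6, RPP40 and YPEL1 each had a class 5 promoter peak as well, over another stretch of their promoters. B3GALT5 and LOC100624333 had promoter peaks in liver alone. Outside promoters the strongest lay 93.3 kb from ABHD5, a co-activator of fat breakdown (chr13:27099305-27100126, 498 and 149), in an intron 65.8 kb from the start site of HADH, an enzyme of fatty acid oxidation (chr8:113939211-113939828, 238 and 124), in an intron of MMRN1 (chr8:129169534-129170097, 394 and 116) and 370 kb from TBX3, a developmental repressor (chr14:37211984-37213126, 397 and 113). The other 6 had LOC100514822, C9H1orf21, LOC102164418, ICA1, ATP2B2 and SAMD3 as the nearest gene. All 10 were called at both later ages.

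In classes 1 to 5 the strongest promoter peaks were mostly those of genes outside the hepatocyte lists. They were GLT1D1, CCDC33 and CDHR3 in class 1, shared with muscle, spleen and kidney in that order. LOC102165015, LOC100623541 and NAV2 led class 2, all shared with kidney and lung. RHOBTB1, LOC100515741 and CACNG3 led class 3, ZNF654, DISP2 and FAM19A4 class 4, and LEPROT, the pair ISCA2 and NPC2, and CALCOCO1 class 5. LEPROT (chr6:146986841-146987850) reached a −log10 p of 733 and 327, against 408 and 113 at DGKG.

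Class 0 peaks were also counted by their nearest gene. Of all PCGs, 10207 (54.5%) were the nearest gene of at least 1 class 0 peak, and 2059 (11.0%) of at least 5. These 2059 genes took 16889 class 0 peaks (52.3%). Among the 113 hepatocyte genes, 107 (94.7%) were nearest to at least 1 and 45 (39.8%) to at least 5. After CPS1 came ID2, an inhibitor of helix-loop-helix factors, with 35 of 86, and MYC, a growth regulator, with 35 of 111, all of them outside these short genes and up to 556 and 819 kb away. Long genes made up most of the rest, with FOXP1 (32 of 89), PDE10A (31 of 63), WWOX (31 of 70), NAV2 (30 of 90), PDE4D (30 of 99) and PSD3 (28 of 58). The ranking is by count and favours genes with many nearest peaks of any class. From ID2 to PSD3 the class 0 share ran from 30.3% (PDE4D) and 31.5% (MYC) to 49.2% (PDE10A), against 28.0% of all liver peaks. FAM135B had 28 of 34 and, unlike the others after CPS1, a promoter open in liver alone.

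Kidney was the most frequent partner of liver. Of the 25868 class 1 peaks, 12922 (50.0%, 95% CI 49.3 to 50.6) were shared with kidney, 6849 (26.5%) with spleen, 3156 (12.2%) with lung, 1746 (6.75%) with heart and 1195 (4.62%) with muscle. Kidney also had the longest list, but as a share of each partner's own list these peaks still put kidney first, with 10.1%, before spleen (8.43%), lung (4.08%), heart (2.48%) and muscle (2.18%). In class 4 the missing tissue was muscle, the shortest list, for 6465 of 10375 peaks (62.3%). Promoters showed the same partners. A promoter peak in liver and, among the others, in kidney alone was found for 268 PCGs (1.43%), and in spleen alone for 130 (0.694%). Of the 113 hepatocyte genes, 20 had the kidney pattern and 2 the spleen pattern, and of 17 erythroid genes, 0 and 4.

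Peaks shared with spleen alone were the least often called in adult liver. The adult share was 49.0% (95% CI 47.8 to 50.2) with spleen, 55.8% (54.9 to 56.6) with kidney, 56.8% with heart, 63.6% with lung and 66.4% with muscle. In suckling liver the order was different, with 74.6% for kidney, 68.6% (67.5 to 69.7) for spleen, 68.5% for muscle, 66.1% for lung and 61.1% for heart. The erythroid promoters of the spleen pattern included HBB, AHSP and SLC4A1, which encode beta globin, the chaperone of its partner and the anion exchanger of red cells. HBB had a promoter peak at chr9:4801687-4802151 (66.6 and 12.2) that was called in suckling but not in adult liver. AHSP (chr3:17060208-17060603, 42.1 and 8.68) and SLC4A1 (chr12:18957475-18957986, 33.7 and 9.88) were called at neither later age. Of the 13 erythroid genes with a newborn liver promoter peak, 9 had one in suckling and 6 (46.2%) in adult liver. The adult list is the shorter. All 20 hepatocyte promoters of the kidney pattern were found in adult liver, as were both of the spleen pattern. Over all PCGs, adult liver had a promoter peak for 178 of 268 genes of the kidney pattern (66.4%) and 83 of 130 of the spleen pattern (63.8%). Fewer erythroid cells in the tissue and less open chromatin per cell cannot be told apart here.

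Motif strings were counted on either strand in such windows, 100 bp to each side of the summit. A match is a description of the sequence, not evidence of binding. They were CAAAGTCCA for HNF4, GTTAATNAT for HNF1, TGTTTAC for FOXA, TTGCNNAA for CEBP, AGATAAG for GATA, GAGGAAGT for SPI1, TGANTCA for AP1, CCGGAAGT for ETS, GGGCGGGG for SP1, GCGCATGCG for NRF1, CCAATCAG for NFY and a CTCF core, of which SPI1 and ETS share their last letters. Outside promoters, HNF4 matches were found in 1.52% of class 0 windows (95% CI 1.39 to 1.66) and 0.362% (0.259 to 0.505) of class 5, with 1.09% over all 97660 windows. HNF1 matches were found in 1.33% and 0.223% (all 1.18%), FOXA in 6.32% and 3.42% (all 4.98%), CEBP in 14.7% and 7.86% (all 12.0%), and GATA in 4.86% and 1.73% (all 4.11%). HNF4, FOXA, CEBP and GATA fell from each class to the next, while HNF1 was highest in class 1, with 1.87%. The reverse order was found for CTCF, the factor of chromatin loop anchors, with 1.24% in class 0 and 12.0% in class 5, and for SP1, with 1.94% and 11.4%. AP1 was found in 7.55% and 8.68%. Any of the HNF4, HNF1, FOXA and CEBP strings occurred in 22.2% of class 0 and 11.4% of class 5 windows, so most class 0 windows held none of them. For the 579 class 0 peaks nearest to listed hepatocyte genes, promoters included, the share was 21.9% (18.8 to 25.5). It was thus no higher there than in class 0 at large.

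In promoters the hepatocyte strings were again more frequent in class 0 than in class 5, and SP1 less frequent. HNF1 was again highest in class 1, with 2.26%. HNF4 was found in 2.01% of 1345 class 0 windows and 0.131% of 10653 class 5 windows, HNF1 in 1.71% and 0.122%, FOXA in 5.50% and 1.51% and CEBP in 13.3% and 3.89%. SP1 was found in 4.09% and 37.1%, ETS in 0.223% and 7.02%, NFY in 0.669% and 5.07%, and NRF1 in 0% (95% CI up to 0.285) and 2.30%. AP1 and CTCF ran otherwise than outside promoters. AP1 was found in 7.14% of class 0 and 2.62% of class 5, and CTCF in 1.12% (0.677 to 1.83) and 1.42% (1.21 to 1.66), with its highest share, 2.22%, in class 3. Over all 17844 promoter windows, HNF4 had 0.448%, SP1 27.7% and ETS 4.39%. With the letters of each string in reverse order, SP1 was still found in 4.31% and 36.0%, FOXA in 2.53% and 0.695%, and AP1 in 4.91% and 1.69%. HNF4 then had 0.372% and 0.0657%, HNF1 0.446% and 0.0375%, CEBP 1.49% and 1.93%, and ETS 0.892% and 0.563%. The gap of SP1 was thus not particular to the string as written, and those of FOXA and AP1 were so only in part. Reversal keeps the letters of a string but not its CpG. The CEBP string gains a fixed CpG and the ETS string loses its own, and CpG content differed between these classes. For CEBP and ETS the reversed strings therefore cannot tell the motif from CpG content.

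**Figure D5:**
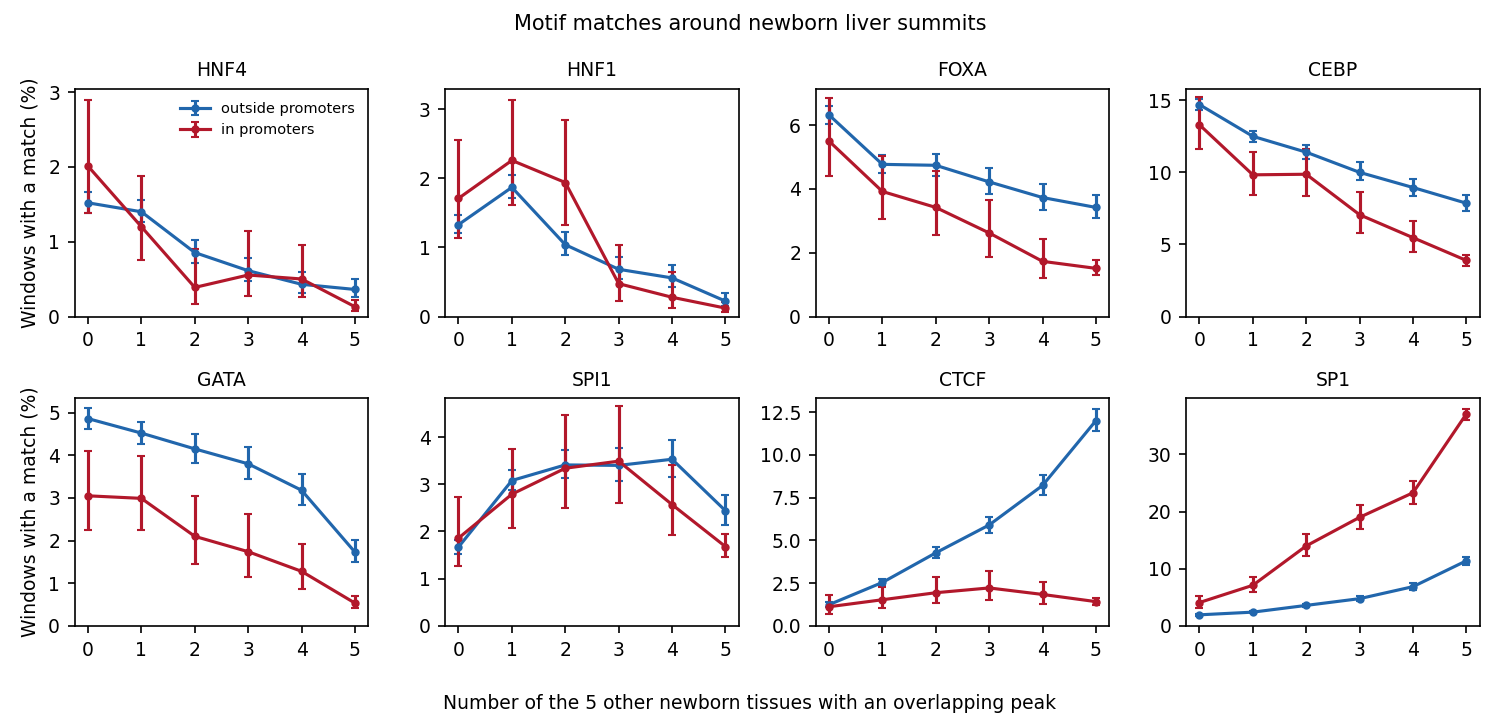
Percent of summit windows with a match to 8 motif strings (vertical axes, separate scales) by number of other tissues (horizontal axes), outside and in promoters; bars are Wilson 95% confidence intervals. Outside promoters CEBP falls from 14.7% to 7.86% and CTCF rises from 1.24% to 12.0%.

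Base composition moved with class as well. The median GC content outside promoters was 48.8% in class 0 and 58.2% in class 5, and in promoters 52.2% and 68.2%, with a median observed to expected CpG ratio of 0.250 and 0.838 there. Within windows of 40 to 50% GC outside promoters, HNF4 matches were found in 1.82% of class 0 and 0.464% of class 5, HNF1 in 1.47% and 0.522%, FOXA in 7.85% and 5.05%, CEBP in 18.3% and 15.4%, and CTCF in 1.03% and 11.9%. The gap of CEBP was thus narrower at like GC, and between 50 and 60% GC that of FOXA was gone, with 4.16% and 4.20%. Written backwards, the CEBP string, which then holds a fixed CpG, was found outside promoters in 2.02% and 2.28%. The HNF4 string was found in 0.226% and 0.138%. The FOXA string was still found in 3.60% and 1.67%, and the SP1 string in 1.72% and 10.5%. Among class 0 peaks outside promoters, those with an IDR of 0.05 or lower held more HNF4 (2.81% against 1.34%), FOXA (11.3% against 5.62%) and CEBP (20.1% against 14.0%) than the rest, while CTCF had 0.0794% against 1.40% and HNF1 1.48% against 1.31%.

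Motif shares of class 1 peaks outside promoters differed by partner tissue. Windows shared with kidney alone held HNF1 in 3.15% (95% CI 2.85 to 3.47) and HNF4 in 2.15% (1.91 to 2.42), against 1.33% and 1.52% in class 0. Windows shared with spleen alone held SPI1, the string of a myeloid and lymphoid factor, in 7.26% (6.65 to 7.92), against 1.67% in class 0. They held GATA in 6.05% (5.49 to 6.66), against 4.86% in class 0, but HNF1 and HNF4 in 0.482% each. Windows shared with lung alone held FOXA in 10.7% and CEBP in 20.7%, and those shared with heart alone held GATA in 10.1%. Windows shared with muscle alone held AP1 in 10.2% and GATA in 2.12%.

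Class 0 summits lay in repeats more often than shared ones. Outside promoters, the summit fell on a base masked as a repeat in the reference for 17.6% of class 0 (95% CI 17.2 to 18.1), 12.1% of class 1, 10.3% of class 2, 9.29% of class 3, 8.46% of class 4 and 7.34% of class 5, whereas 35.7% of all bases on chromosomes 1 to 18 are masked. The share in class 0 was 18.4% for peaks with an IDR above 0.05 and 12.3% for the others, and 19.6% for peaks not called in adult liver against 16.0% for those called. In class 5 the first pair was 8.12% and 5.89%.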

How the data were processed

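ATAC-seq peaks of 16 libraries were used as 8 deposited lists, 1 for each tissue and age. Read pairs had been mapped to Sscrofa11.1 by the authors (Bowtie2), cleared of mitochondrial reads, poor alignments and duplicates (SAMtools), turned into peaks for each replicate (MACS2) and matched between replicates by IDR, as their methods state. In the deposited lists each interval is the union of the intervals of both replicates. The authors gave a −log10 p for each replicate and the smaller of them, which depend on depth and were used here only to rank peaks within a list. The score, as deposited, is a scaled IDR (540 corresponds to 0.05), and the lists also hold peaks above that IDR. The lists hold no read counts, so no value was scaled by depth, and the read totals per library in the supplement of the study were not used here.

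Groups were taken from the labels. Starts counted from 0 were converted to 1-based positions. Start sites, exons and repeats were taken from RefSeq for Sscrofa11.1 (18725 protein-coding genes on chromosomes 1 to 18). A peak took the first of promoter, exon, intron, 300 bp downstream and intergenic. Of 363 listed genes, 335 matched by symbol or synonym. Genes named are the 4 markers, list members, the 10 strongest class 0 peaks in and outside promoters, the 3 strongest promoter peaks of each other class and the 10 genes nearest to most class 0 peaks. The members, the gene lists and the motif strings were chosen with earlier results of these data known. The printed windows, the masked repeats and the GC bins were chosen after values were seen. Overlap counts were checked on simulated intervals and motif searches on planted strings. Python 3.11.15, numpy 2.4.6, pandas 2.3.3, scipy 1.17.1 and matplotlib 3.10.9 were used. Some genes covered by the rule for named genes are not reported here. Alternatives covered the overlap rule, IDR, list length, single replicates, scaffolds, promoter width, annotation and motif windows.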

Additional observations from a re-analysis of the deposited data

How the results depend on the processing

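No paired analysis was possible because each group was deposited as 1 list of merged replicates, so no result comes from a test over samples. A share is called moved where it left the main 95% interval, and a count where it changed by over 1.5 times. Of 72 alternative values, 29 stayed, 42 moved and 1 reversed. The reversed one came from the CEBP string written backwards, a control string with a fixed CpG and not the CEBP motif itself. Class 5 kept a higher promoter share and a higher share called in adult liver than class 0 under every alternative run for those shares.

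Asking that 50% of the liver peak be covered gave promoter shares of 4.46% (class 0) and 58.2% (class 5), and adult shares of 52.7% and 93.0%. When newborn liver alone was limited to an IDR of 0.05 there were 3963 class 0 and 10249 class 5 peaks, 189 genes with a class 0 promoter peak, promoter shares of 4.69% and 68.0%, and adult shares of 88.6% and 99.7%. With that IDR in every list the values were 7593 and 3005 peaks, 506 genes, 6.66% and 82.6%, and 76.6% and 95%. With lists of equal length they were 15078 and 10083 peaks, 732 genes, 5.10% and 58.2%, and 56.1% and 83.9%; fewer peaks enter these alternatives by construction. With intervals of 1 replicate, adult shares lay from 52.6% to 53.2% in class 0 and from 94.8% to 95.1% in class 5, class 0 held 33363 to 33706 peaks, class 5 19699 to 19879, the genes numbered 1251 to 1307, and promoter shares were 4.09% to 4.25% and 53.0% to 53.4%. These intervals still belong to peaks matched in both replicates. Promoters of 1000 bp upstream and 100 bp downstream gave 638 genes and promoter shares of 2.08% and 50.0%. All annotated genes gave promoter shares of 5.66% and 55.9% and median distances of 21.9 kb and 0.608 kb. Class 0 minus class 5 outside promoters, in percentage points, was 1.16 for HNF4, 1.11 for HNF1, 2.89 for FOXA and 6.85 for CEBP. With 50 bp on each side of the summit it was 0.855, 0.602, 1.98 and 4.13. Strings written backwards, which are controls and not the same motifs, gave 0.0877, 0.210, 1.93 and -0.252. The interval of the last, for CEBP, ran from -0.607 to 0.0742, so no gap of either sign was clear there. The cause of these changes was not tested.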
